A study of Mus musculus with 2 samples.

Results

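The 10 UDP-glucuronosyltransferase genes described here are Ugt1a1, Ugt1a5 and Ugt1a6b of the Ugt1a subfamily, Ugt2a3, and Ugt2b1, Ugt2b5, Ugt2b34, Ugt2b35, Ugt2b36 and Ugt2b38 of the Ugt2b subfamily. They were taken by symbol from a table of 21936 genes, and all 10 were found. The table names 22 genes of the Ugt1, Ugt2, Ugt3 and Ugt8 families in all. Liver RNA was sequenced from 2 groups of mice with 1 library each. The control was hnRNPK flox/flox. The knockout was hnRNPK flox/flox that also carried Alb-Cre, so both groups carried the floxed allele, and Cre was under the promoter of the hepatocyte gene albumin. This follows the sample labels, while the series title and the column header call the control wild type, and the title calls the knockout hnRNPK-MKO, which was not settled here. No source used here gives the age or sex of the mice, or how many of them are behind a library.

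UDP-glucuronosyltransferases sit in the membrane of the endoplasmic reticulum and transfer glucuronic acid from UDP-glucuronate to bilirubin, steroid hormones, bile acids, fatty acids and drugs. The conjugates are more water-soluble and leave hepatocytes into bile or blood. In the Ugt1a locus each gene consists of its own promoter and first exon, which encodes the substrate-binding part of the protein, spliced to a set of common exons that encode the part that binds the UDP-sugar. Ugt2b genes are separate neighbouring copies, each with its own full set of exons.

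The common exons matter for reading the Ugt1a values, so the joins are shown first. Exons 2 to 5 of Ugt1a1 hold 1311 bases, and every base of them lies in the exons of all 9 Ugt1a genes of the table (GENCODE M21 annotation of mm10, chromosome 1, plus strand). For the genes shown, the first exon is the part whose genome positions lie in no other UGT gene's exons, although its letters can resemble those of a neighbour. It covers 913 bases for Ugt1a1 (chr1:88211959-88212871), 892 for Ugt1a5 (chr1:88166012-88166903), 938 in the 5-exon transcript of Ugt1a6b (chr1:88106862-88107799) and 879 for Ugt1a9 (chr1:88070800-88071678). The last 30 coding bases of each first exon are in lower case, and the first 30 bases of the common exon 2 (chr1:88215044-88215175) are in capitals:
Ugt1a1: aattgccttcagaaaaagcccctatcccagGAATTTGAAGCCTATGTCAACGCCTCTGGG
Ugt1a5: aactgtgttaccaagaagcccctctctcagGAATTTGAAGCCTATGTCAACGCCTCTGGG
Ugt1a6b: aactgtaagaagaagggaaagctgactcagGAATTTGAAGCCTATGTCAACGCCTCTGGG
Ugt1a9: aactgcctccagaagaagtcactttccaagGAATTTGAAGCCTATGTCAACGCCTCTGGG
The lower-case parts differ between the genes, and the capitals are the same in each.

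The Ugt2b genes have no exon positions in common, and how alike their sequences are differs from pair to pair. The first 60 coding bases are given for the 6 genes and for Ugt2b37, a further copy that enters the results, all on chromosome 5. Capitals mark bases that differ from Ugt2b5 at the same position:
Ugt2b5: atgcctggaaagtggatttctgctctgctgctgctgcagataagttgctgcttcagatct
Ugt2b38: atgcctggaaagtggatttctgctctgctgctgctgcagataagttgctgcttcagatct
Ugt2b37: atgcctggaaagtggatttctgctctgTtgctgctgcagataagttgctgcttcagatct
Ugt2b36: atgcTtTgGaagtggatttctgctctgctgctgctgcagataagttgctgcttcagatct
Ugt2b35: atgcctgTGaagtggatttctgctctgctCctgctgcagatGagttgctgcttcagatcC
Ugt2b1: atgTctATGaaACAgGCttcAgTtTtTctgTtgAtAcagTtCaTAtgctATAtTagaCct
Ugt2b34: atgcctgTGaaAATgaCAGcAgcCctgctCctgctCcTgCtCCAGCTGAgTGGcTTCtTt
Ugt2b38 has 0 differences from Ugt2b5 here, Ugt2b1 has 25 and Ugt2b34 has 29. Over the whole coding sequence, Ugt2b5 and Ugt2b38 were 97.0% identical, with an unbroken identical run of 443 bases. Among the 15 pairs of the 6 genes, the lowest identity was 70.9%, between Ugt2b34 and Ugt2b35. The Ugt1a and Ugt2b coding sequences were 51.6% to 55.8% identical over 18 pairs.

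These likenesses set how far a row of the table stands for a single gene. Of the 50-base stretches of each transcript, 41.7% in Ugt2b5, 37.4% in Ugt2b38 and 18.3% in Ugt2b37 also occurred in a transcript of another gene, but 0 in Ugt2b1, 0.326% in Ugt2b36, 0.725% in Ugt2b35, 2.07% in Ugt2b34 and 4.55% in Ugt2a3. Rows of Ugt2b1, Ugt2b36, Ugt2b35, Ugt2b34 and Ugt2a3 therefore rest mainly on sequence of their own, while reads of Ugt2b5, Ugt2b38 and Ugt2b37 could be split among them by the counting. For the Ugt1a genes the shares were 58.2% in Ugt1a1, 64.0% in Ugt1a5 and 78.6% in Ugt1a6b. Ugt1a8 had 0 reads in both libraries although it holds the common exons, so reads of those exons were not counted for every gene that contains them. No source used here says whether they were left out or given to single genes.

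Library totals were 12428975 counted reads (control) and 12176239 (knockout). Hnrnpk, the targeted gene, which encodes an RNA- and DNA-binding protein, had 2559 control and 1411 knockout reads, a ratio of 0.567 (95% interval 0.531 to 0.605). Ratios are knockout over control after scaling. Each interval is an exact Clopper-Pearson interval, computed from how a gene's reads divide between the libraries, and covers counting error only. There was 1 library per genotype, so no test could be made, and a difference between mice or preparations is contained in every ratio. Instead, genes with FPKM 1 or more (reads per unit of gene length and of library total) and at least 20 reads in one of the libraries were evaluated, and a gene was past the size rule at 2-fold or more. Of 9563 evaluated genes, 2.48% were past the rule upward and 1.11% downward, and the median log2 ratio was -0.03. All 8 hepatocyte markers, which include Alb, Cps1 and Ttr, were expressed and within the rule, with a median log2 ratio of -0.03. The summed FPKM of bile duct epithelium markers was 16.1 (control) and 73.9 (knockout), and 4 of 6 evaluated members were past the rule upward. Of these, Krt19, Epcam and Cd24a were evaluated only through the knockout, where they are high (control FPKM 0.173, 0.367 and 0.468). None of that list's 9 genes was at 0 in either library.

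All 10 UDP-glucuronosyltransferase genes were evaluated, and 0 of 10 were past 2-fold in either direction, beside the 2.48% and 1.11% of all evaluated genes. At 1.5-fold, 1 of 10 (Ugt1a5) was past upward, beside 6.15% of all evaluated genes, and 0 of 10 downward, beside 5.29%. In 8 of 10 the ratio was above 1 and its counting interval excluded 1, which held for 20.8% of all evaluated genes. Whether an interval excludes 1 depends on the number of reads, and the genes compared were not matched for it. By direction alone, 46.0% of all evaluated genes had a log2 ratio above 0. Ugt1a1 alone had an interval below 1, as had 26.0% of all evaluated genes, and the interval of Ugt2b34 included 1. The 10 genes together had 45977 control and 56466 knockout reads, or 0.370% and 0.464% of all counted reads. The ratio of these sums was 1.26 (1.25 to 1.28). Their median log2 ratio was 0.35. In bulk liver, fewer cells of a type and less RNA per cell cannot be told apart.

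**Figure D1:**
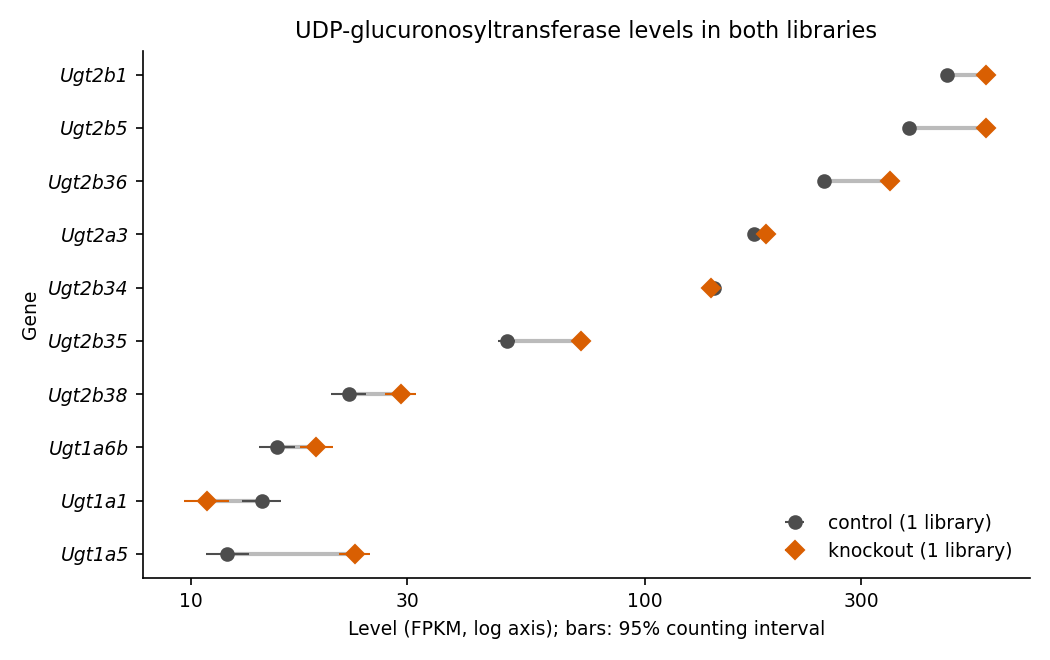
Level of each of the 10 genes in FPKM (log axis) in the control (circles) and the knockout library (diamonds), 1 library each, with 95% counting intervals and genes ordered by their control level. Ugt2b1 was highest in both (463 and 566), and Ugt1a1 (14.4 and 10.9) is the gene whose knockout point lies clearly to the left.

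Ugt2b genes carried most of the UGT transcript in both libraries. Ugt2b1 (ENSMUSG00000035836, chromosome 5, 86916638 to 86926530, minus strand), which shares its name with a rat enzyme that conjugates bisphenol A, had 14811 control and 17741 knockout reads, or FPKM 463 and 566. It was 1.23-fold higher in the knockout (1.21 to 1.26) and took 32.2% and 31.4% of the reads of the 10 genes. This gene had the largest number of reads and shares no 50-base stretch with another gene's transcript, so counting and assignment error are smallest for it.

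Ugt2b5 (ENSMUSG00000054630, 87124960 to 87140318, minus strand) had 8817 and 12785 reads, or FPKM 382 and 565, and was 1.49-fold higher in the knockout (1.45 to 1.53). The control level lay below that of Ugt2b1 by more than the counting intervals (374 to 390 against 456 to 471). In the knockout both genes stood at almost the same level, with overlapping intervals of 555 to 575 and 558 to 575. Of the 50-base stretches of Ugt2b5, 41.7% also occur in a transcript of another gene. The intervals leave out how such reads were placed. Ugt2b36 (ENSMUSG00000070704, 87065927 to 87092555, minus strand) had 6372 and 8727 reads, or FPKM 249 and 348, and was 1.41-fold higher (1.36 to 1.46).

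Ugt2b35 (ENSMUSG00000035811, 87000860 to 87013275) is the one gene of the 6 on the plus strand. It had 2077 and 2967 reads, or FPKM 49.7 and 72.5, and was 1.47-fold higher in the knockout (1.39 to 1.55). Its ratio was close to those of Ugt2b5 and Ugt2b36 although its level was several times lower. Ugt2b38 (ENSMUSG00000061906, 87409942 to 87424203, minus strand), the near copy of Ugt2b5, had 524 and 668 reads, or FPKM 22.3 and 29.0, with a ratio of 1.31 (1.17 to 1.47). A small part of the Ugt2b5 reads, if placed on Ugt2b38, would weigh heavily in that row, and this was not tested.

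Ugt2b34 (ENSMUSG00000029260, 86889767 to 86906937, minus strand) stood apart from the rest of its subfamily. It had 7613 and 7348 reads, or FPKM 142 and 140, and the ratio was 0.993 (0.961 to 1.03). Its interval lay below those of the 5 other Ugt2b genes, and its share of the reads of the 10 genes was 16.6% in the control and 13.0% in the knockout. Ugt2b34 is also the gene at the edge of the cluster that differs most from Ugt2b5 in the sequences above.

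Ugt2a3 (ENSMUSG00000035780, 87324972 to 87337195, minus strand), whose human counterpart conjugates bile acids, lies between the Ugt2b genes. It had 4576 and 4770 reads, or FPKM 174 and 185. The ratio was 1.07 (1.03 to 1.12), with an interval above that of Ugt2b34 and below those of the 5 other Ugt2b genes. Ugt2a1 and Ugt2a2, which share most of their exons with each other, had 0 reads in both libraries.

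Ugt2b37 (21 and 86 reads, FPKM 0.892 and 3.73) is a Ugt2b gene outside the 10, named after its values were seen. It was 4.21-fold higher in the knockout (2.59 to 7.15) and past the rule. With a control FPKM below 1, it was evaluated only through the knockout, where it is high. Its coding sequence is 94.7% identical to that of Ugt2b5, which had 12785 reads in the knockout, so its row is uncertain.

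The 3 Ugt1a genes had lower FPKM than any of the 6 Ugt2b genes in both libraries, and their ratios lay on both sides of 1. Ugt1a1 (ENSMUSG00000089960, chromosome 1, 88211959 to 88218997, plus strand) encodes the enzyme that conjugates bilirubin. It had 397 control and 294 knockout reads, or FPKM 14.4 and 10.9. The ratio was 0.762 (0.653 to 0.888), a log2 ratio of -0.39, and 13.0% of evaluated genes had a lower one.

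Ugt1a5 (ENSMUSG00000089943, 88166012 to 88218997, plus strand) differed in the other direction. It had 330 and 617 reads, or FPKM 12.1 and 23.0, and was 1.92-fold higher in the knockout (1.68 to 2.20). Among the 10 genes this was the highest ratio, short of the 2-fold rule with an interval that spans it, and 2.83% of evaluated genes had a higher log2 ratio. Ugt1a6b (ENSMUSG00000090145, 88103252 to 88219003, plus strand) is one of a pair of mouse genes of the UGT1A6 type, enzymes known in humans for conjugating small phenols. It had 460 and 549 reads, or FPKM 15.5 and 18.9, with a ratio of 1.23 (1.08 to 1.39). Its partner Ugt1a6a, 98.4% identical in coding sequence, had 98 and 111 reads. Of the 50-base stretches of Ugt1a6a, 97.7% also occur in a transcript of another gene, so reads could be split between this pair by the counting. The intervals of Ugt1a6b, here and below, leave that out.

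The order of the Ugt1a levels differed between the libraries. In the control, Ugt1a6b (14.1 to 17.0), Ugt1a1 (13.0 to 15.8) and Ugt1a5 (10.8 to 13.4) followed each other in FPKM, each overlapping the next in its counting interval. In the knockout, Ugt1a5 (21.2 to 24.9), Ugt1a6b (17.4 to 20.6) and Ugt1a1 (9.65 to 12.2) did not overlap. The log2 ratio of Ugt1a5 exceeded that of Ugt1a1 by 1.34 (1.05 to 1.63), and that of Ugt1a6b exceeded it by 0.69 (0.41 to 0.97).

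**Figure D2:**
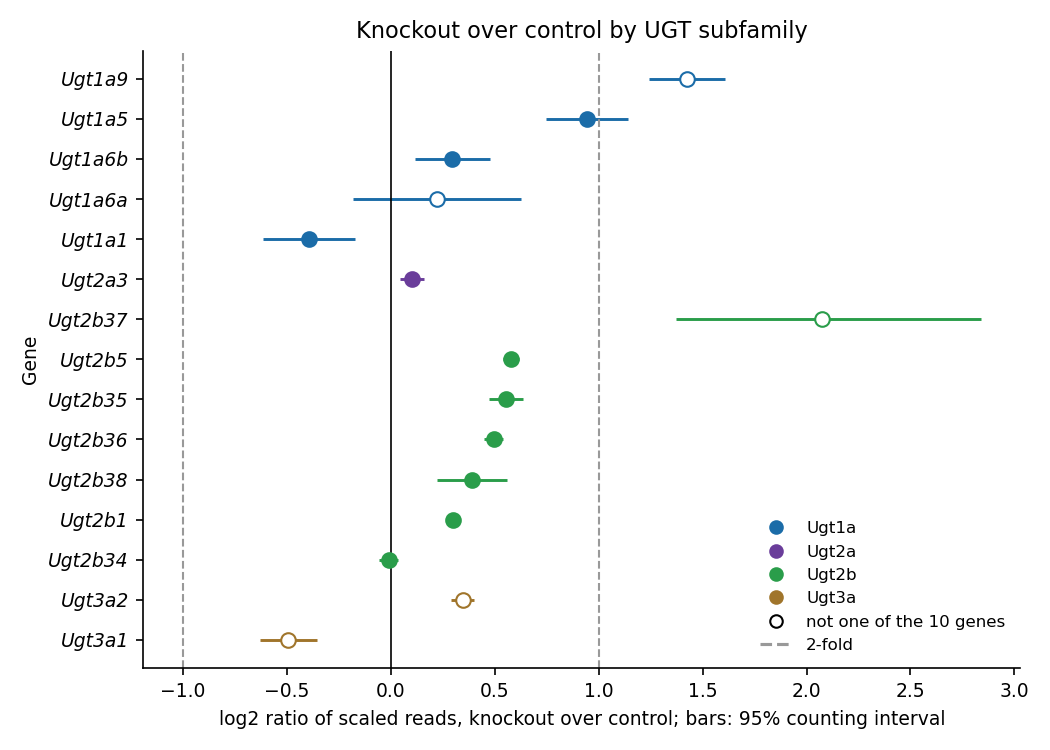
log2 ratio of scaled reads, knockout over control, for the 15 evaluated UGT genes by subfamily, with 95% counting intervals, open symbols for genes outside the 10 and dashed lines at 2-fold. Among filled symbols, Ugt2b genes lie between -0.01 and 0.58 and Ugt1a genes between -0.39 and 0.94. Open symbols reach 1.42 for Ugt1a9 and 2.05 for Ugt2b37.

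Ugt1a9, a gene outside the 10 that was named after its values were seen, changes the account of the locus. Its human counterpart conjugates bulky phenols. It had 341 control and 889 knockout reads, or FPKM 12.5 and 33.3, and was 2.68-fold higher (2.36 to 3.05), past the rule. In the control its level overlapped those of Ugt1a1 and Ugt1a5, and in the knockout it was the highest of the locus.

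Of all reads given to Ugt1a genes, Ugt1a9 took 20.8% in the control (95% exact binomial interval 18.8 to 22.8) and 35.8% in the knockout (33.9 to 37.7). Ugt1a5 took 20.1% (18.2 to 22.1) and 24.9% (23.2 to 26.6). The share of Ugt1a1 was 24.2% (22.1 to 26.3) and 11.8% (10.6 to 13.2), and that of Ugt1a6b was 28.0% (25.8 to 30.2) and 22.1% (20.5 to 23.8). These 4 genes thus held between 20.1% and 28.0% each in the control, while in the knockout Ugt1a9 held the most and Ugt1a1 the least. Ugt1a2, Ugt1a7c and Ugt1a10 had 15 or fewer reads in either library.

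**Figure D3:**
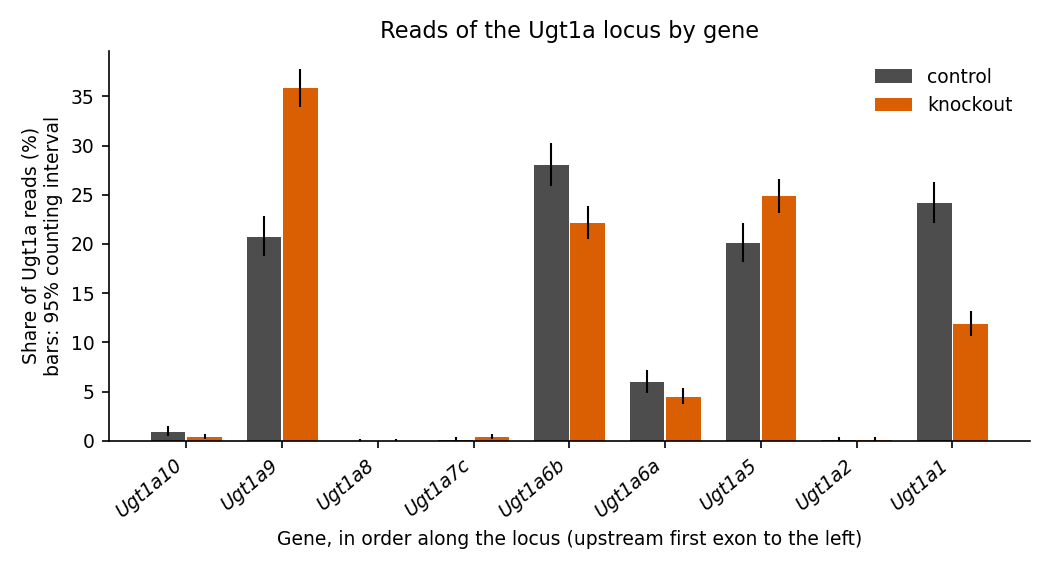
Share of the Ugt1a reads (1643 control and 2482 knockout reads) given to each of the 9 Ugt1a genes, in order along the locus, with 95% exact binomial intervals. Ugt1a9 went from 20.8% to 35.8% between the control and the knockout library, and Ugt1a1, the gene nearest the common exons, from 24.2% to 11.8%.

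Set against each other, the subfamilies differed widely in their sums of reads, while the ratios of these sums lay close together. The 3 Ugt1a genes summed to 1187 and 1460 reads, a ratio of 1.27 (1.17 to 1.37). This sum combines genes on both sides of 1, with ratios of 0.762 (Ugt1a1), 1.23 (Ugt1a6b) and 1.92 (Ugt1a5). The 6 Ugt2b genes summed to 40214 and 50236 reads, a ratio of 1.28 (1.27 to 1.30). The difference of the log2 ratios, Ugt1a minus Ugt2b, was -0.02, with a counting interval of -0.13 to 0.09. When every Ugt1a and Ugt2b gene of the table was summed, a comparison added after the data were seen, the ratios were 1.55 (1.46 to 1.65) and 1.29 (1.27 to 1.30). The difference was then 0.27 (0.18 to 0.36), and Ugt1a9 is the gene that brought most of the added reads.

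Levels differed more than ratios. The summed FPKM of the 6 Ugt2b genes was 1308 (control) and 1721 (knockout), and that of the 3 Ugt1a genes was 42.0 and 52.8. FPKM divides by the whole gene length, so it would understate Ugt1a levels if common exons were not counted. Each gene's whole read count was also divided by the kilobases of its exons at positions no other UGT gene holds. The control and knockout values were 435 and 322 for Ugt1a1, 370 and 692 for Ugt1a5, and 490 and 585 for Ugt1a6b. These lay below Ugt2b35 (618 and 883) and Ugt2b1 (5756 and 6895) in both libraries. They lay above Ugt2b38 (277 and 353), except Ugt1a1 in the knockout. If reads of common exons were given to single genes, the Ugt1a values are too high and this order is uncertain.

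**Figure D4:**
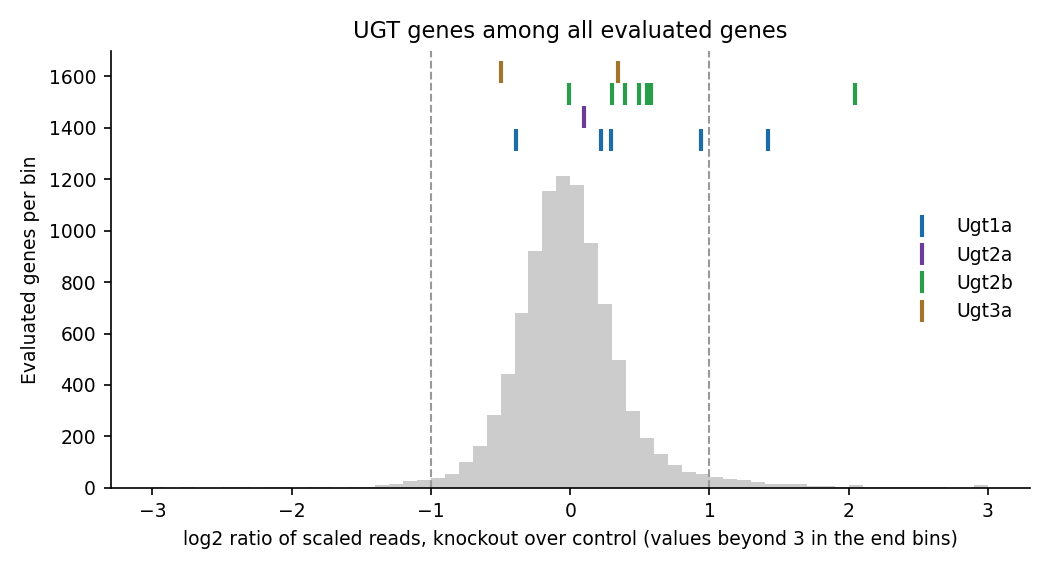
Histogram of the log2 ratio of all 9563 evaluated genes (bins of 0.1) with the 15 evaluated UGT genes marked above it by subfamily and dashed lines at 2-fold. Of these 15 genes, 12 lie above 0, beside 46.0% of all evaluated genes, and the 2 past the rule are Ugt1a9 and Ugt2b37. Ugt2b37 was evaluated only through the knockout library.

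Because the Ugt1a first exons have promoters of their own, the 250 bases before the RefSeq start (GRCm38.p6, plus strand) are shown for 3 genes. They are Ugt1a1, which was lower in the knockout, and Ugt1a5 and Ugt1a9, which had the highest ratios of the evaluated Ugt1a genes. Capitals mark GTTAAT, part of the site of the hepatocyte factor HNF1, and GCGTG, the core bound by the aryl hydrocarbon receptor AHR with ARNT, on either strand:
Ugt1a1 (chr1:88211709-88211958): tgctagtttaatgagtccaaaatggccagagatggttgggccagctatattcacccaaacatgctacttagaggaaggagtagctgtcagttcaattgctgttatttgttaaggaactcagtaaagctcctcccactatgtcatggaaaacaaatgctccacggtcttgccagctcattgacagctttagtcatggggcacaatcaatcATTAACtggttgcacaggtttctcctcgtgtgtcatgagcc
Ugt1a5 (chr1:88165762-88166011): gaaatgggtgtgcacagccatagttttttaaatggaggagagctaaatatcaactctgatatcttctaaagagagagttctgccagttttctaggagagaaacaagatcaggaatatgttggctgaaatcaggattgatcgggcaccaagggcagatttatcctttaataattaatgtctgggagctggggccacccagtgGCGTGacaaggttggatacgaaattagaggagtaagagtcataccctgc
Ugt1a9 (chr1:88070529-88070778): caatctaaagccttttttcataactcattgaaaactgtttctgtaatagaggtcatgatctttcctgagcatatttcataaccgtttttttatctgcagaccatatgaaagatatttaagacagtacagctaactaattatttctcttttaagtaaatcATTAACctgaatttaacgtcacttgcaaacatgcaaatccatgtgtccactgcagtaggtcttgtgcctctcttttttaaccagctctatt
GTTAAT was in Ugt1a1 and Ugt1a9, and GCGTG was in Ugt1a5. Among the Ugt1a windows not shown, GTTAAT was in Ugt1a6a and Ugt1a10, and GCGTG was in Ugt1a8. A relation between these letters and the ratios was not tested. A RefSeq promoter was matched for 9 of the 10 genes, but not for Ugt1a6b, which was also higher in the knockout (ratio 1.23). GTTAAT was in 2 of these 9 (Ugt1a1 and Ugt2a3), beside 6.43% of all 32851 promoter windows of that length. GCGTG was in 1 of 9, beside 28.2%. CCCTCC, part of the C-rich CT element that hnRNPK is known to bind, was in 3 of 9 (Ugt2a3, Ugt2b34 and Ugt2b36), beside 35.2%. In the 3 windows shown, no match overlapped a match of another motif. A match is a description of letters and not of binding.

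Genes around the reaction were described from 8 lists, in which 0 genes were past the rule upward and 1 was past it downward. Of all evaluated genes, 2.48% were past it upward and 1.11% downward, and these shares apply beside each list's count below. The lists hold 3 to 20 evaluated genes each, so a count of 0 is near those shares. The sugar donor is made from UDP-glucose, which Ugp2 makes and Ugdh oxidises. Of 10 evaluated genes of the list for UDP-glucuronate supply, 0 passed the rule, and the median log2 ratio was -0.01. That list also holds Gys2, G6pc and Slc37a4, which are not steps to UDP-glucuronate. Ugp2 had FPKM 107 and 108 (log2 ratio 0.02). Ugdh, named after its value was seen, had 21.1 and 23.6 (0.17). Slc35d1, which carries UDP-glucuronate into the endoplasmic reticulum and was likewise named after its value was seen, was at 0.08. The outer values were those of Slc37a4, the glucose 6-phosphate transporter (112 and 74.0, log2 ratio -0.59), Gys2, the liver glycogen synthase (-0.30), G6pc, the catalytic subunit of glucose 6-phosphatase (0.22), and Slc35b1 (0.38).

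Of 7 evaluated genes that use glucuronate or cleave glucuronides, 0 passed the rule and 5 lay above 0, beside 46.0% of all evaluated genes, with a median of 0.23. Gulo, the last enzyme of ascorbate synthesis from glucuronate in mice, had FPKM 195 and 325 (log2 ratio 0.75). Gusb, the lysosomal enzyme that removes glucuronic acid, was at 0.37, Xylb at -0.01 and Dcxr, the xylulose reductase, at -0.17.

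Of 9 evaluated transporters of conjugates and organic anions, 8 were below 0, beside 54.0% of all evaluated genes, and 0 passed the rule, with a median of -0.30. Abcc2, which exports bilirubin glucuronides into bile, had FPKM 92.2 and 88.8 (log2 ratio -0.04), and Abcg2, another canalicular exporter, was at 0.07. The lowest values were those of Abcc6 (-0.45) and Slco1a4, an uptake transporter (-0.42). Abcc3, which exports glucuronides into blood, had FPKM 55.4 and 41.8 (-0.39).

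In the list from heme to bilirubin, 0 of 6 genes were past 2-fold, with a median of -0.09. Hmox1, the inducible heme oxygenase, had 227 and 150 reads (log2 ratio -0.56). The biliverdin reductases differed from each other, with Blvra at -0.34 and Blvrb at 0.46. Hmox2 was at -0.07 and Alas1, the first enzyme of heme synthesis, at 0.07.

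Among 20 evaluated sensors and transcription factors known for regulating Ugt genes, 16 lay below 0, beside 54.0% of all evaluated genes. Of the 20, 1 passed the rule downward, beside 1.11%, and the median was -0.27. Ppara, a fatty acid sensor, was the one past it, with FPKM 41.8 and 16.6 (log2 ratio -1.32). Ahr had 694 and 409 reads (-0.72). The xenobiotic sensors Nr1i3 (CAR) and Nr1i2 (PXR) were at -0.29 and 0.05, and Nfe2l2, the regulator of antioxidant genes, at 0.11. Cebpb was the highest at 0.17, and Foxa1 was at 0.00.

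Known targets of these sensors went both ways. Of 14 evaluated CAR and PXR targets, 0 passed the rule and the median was 0.03, from Cyp2b10 (FPKM 12.4 and 6.26, log2 ratio -0.97) and Abcc3 (-0.39) to Cyp3a25 (0.58) and Gstm1 (0.61), with Aldh1a1 at 0.03. Of 7 listed AHR targets only 3 were evaluated. Cyp1a2 had FPKM 411 and 580 (log2 ratio 0.51), Nqo1 was at 0.76 and Tiparp at -0.38, while Cyp1a1, the most inducible of them, had 20 and 19 reads. A list of enzymes and electron carriers of drug and steroid metabolism, which includes cytosolic sulfotransferases, had 0 of 10 past the rule and a median of -0.02, with Ephx1, the microsomal epoxide hydrolase, at 0.64, Sult1a1 at 0.52, Cyb5a at -0.02, Por at -0.21 and Hsd11b1 at -0.39.

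**Figure D5:**
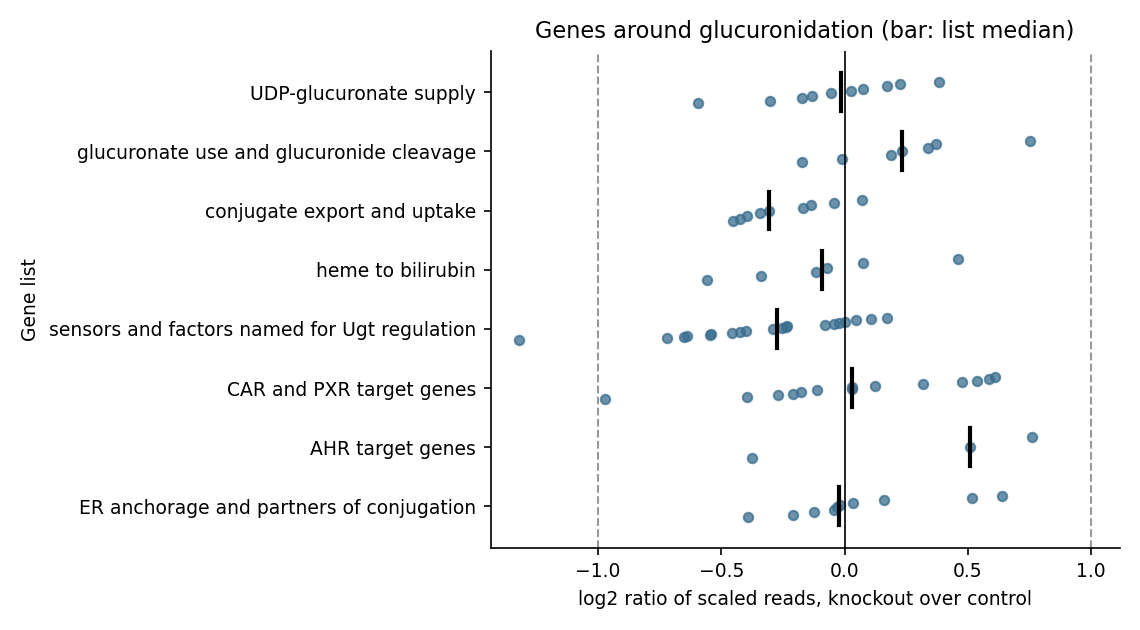
log2 ratio of scaled reads, knockout over control, for the evaluated genes of 8 lists around glucuronidation, with 1 point per gene, a bar at each list's median and dashed lines at 2-fold. Medians run from -0.30 for conjugate transporters to 0.51 for the 3 evaluated AHR targets, and Ppara at -1.32 is the one point past a dashed line.

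Other tissues that express UDP-glucuronosyltransferases were looked for by their markers. Of 7 intestinal markers, 5 (Alpi, Cdx1, Cdx2, Lct and Muc2) had 0 reads in both libraries, Vil1 had 1 and 25 reads, and Fabp2, which liver also expresses, had 531 and 375. Of 6 kidney tubule markers, 5 had 0 reads in both libraries and Lrp2 had 3 and 14. The duct markers named above had 456 and 1773 reads in sum, and Krt19 among them 4 and 70. They were higher in the same library as Ugt1a9, Ugt1a5 and Ugt2b37, and their part in those ratios was not tested. Of all evaluated genes, 2.48% were past the rule upward and 1.11% downward. Beside these shares, Kupffer cell markers had 0 of 6 past the rule upward and 1 downward (Timd4, 74 and 32 reads), with a median of -0.37. Sinusoidal endothelial markers had 0 of 5 past it (median -0.24). Stellate cell and fibroblast markers had 2 of 6 past it upward, Col1a1 and Col3a1, with a median of 0.69.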

How the data were processed

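The authors deposited 1 table that gives each gene's raw read count and its FPKM in both libraries. Bowtie2 2.4.2 and genome build mm10 are named in the submitters' processing notes. No source used here gives the counting program, its annotation, its strand setting or its treatment of reads with several matches. The deposited FPKM equalled count divided by gene length and column total for all 21936 genes in both libraries (relative tolerance 1e-06). All 22 UGT genes had the coordinates of GENCODE M21.

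Ratios used totals scaled by TMM (edgeR 4.0.16, factors 1.004 and 0.996), and log2 ratios added 0.5 to each scaled count. DESeq2 1.42.0 gave alternative size factors. Intervals are 95% and leave out all error but that of counting, and PCR copies without molecular identifiers are not independent. The interval of a difference between 2 log2 ratios is normal, from the Poisson error of the reads. Calculations ran in Python 3.11.15 with scipy 1.17.1 and were tested on simulated counts.

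The genes named are the 10 UGT genes, Hnrnpk, other UGT genes, the sensors Nr1i3, Nr1i2, Ahr, Ppara and Nfe2l2, per list the 2 highest, the 2 lowest and the one nearest 0, and the neighbours of both clusters. Genes outside this rule are marked, except single markers and Cyp1a1. Members and lists were chosen with earlier results of these data known. With 2 libraries, no likeness of patterns between genes was measured.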

Additional observations from a re-analysis of the deposited data

How the results depend on the processing

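No paired analysis was possible because there is 1 library per genotype, and for the same reason no replicate could be left out. Over the 10 UGT genes, no log2 ratio changed sign with DESeq2 size factors, column totals, 5 added reads or the length trend removed, except that of Ugt2b34, which went from -0.01 to 0.01 with the length trend removed. Removing the trend with gene length lowered Ugt2a3 to 0.020, Ugt2b1 to 0.21, Ugt2b5 to 0.48, Ugt2b36 to 0.42, the Ugt2b sum to 0.30, the glucuronate use median to 0.12 and the AHR target median to 0.41, and put 1 CAR and PXR target past the rule downward. The Ugt2b sum was 0.40 without Ugt2b1 and 0.44 as a median, with a Ugt1a minus Ugt2b difference of -0.15 by medians. With every Ugt1a and Ugt2b gene, an alternative added after the data were seen, the Ugt1a sum was 0.64 and the difference 0.27. A 1.5-fold rule took 588 genes upward (6.15%) and 506 downward (5.29%), with 1 of the 10 UGT genes upward (Ugt1a5). By list, it took Slc37a4 of the UDP-glucuronate supply list downward and 4 sensors downward. It took 1 CAR and PXR target each way, and 1 gene upward in each of glucuronate use, AHR targets and conjugation partners. With no filter, 15186 genes were evaluated, 1865 up and 988 down. The glucuronate use median was then 0.29 with 1 gene up, the transporter median -0.24, and 2 AHR targets were up. At FPKM 5 and 100 reads, 5071 genes were evaluated, 64 up and 34 down. Depth limits the UGT genes with few reads, such as Ugt2b37, Ugt8a and Ugt1a10. The cause of these shifts was not tested.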

Other observations

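The other UGT families also split. Ugt3a2, whose human counterpart uses UDP-glucose and UDP-xylose rather than UDP-glucuronate, had 4883 and 6028 reads, or FPKM 127 and 160, with a ratio of 1.27 (1.22 to 1.32). Ugt3a1, its neighbour on chromosome 15, whose human counterpart uses UDP-N-acetylglucosamine, had 1050 and 725 reads, or FPKM 31.6 and 22.3, with a ratio of 0.710 (0.645 to 0.781). Ugt8a, which makes galactosylceramide in myelin-forming cells, had 4 and 12 reads.

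Genes beside the clusters did not share one direction. The Ugt2 genes span 601 kb of chromosome 5 (86889767 to 87490871). On one side lie the sulfotransferase genes Sult1b1 (459 and 811 reads, log2 ratio 0.86), Sult1d1 (4276 and 3674, -0.18) and Sult1e1 (13 and 33, 1.35, past the rule). On the other side lie Ythdc1 (-0.18), Uba6 (-0.22) and Cenpc1 (-0.34). Around the 165 kb of the Ugt1a genes on chromosome 1, Mroh2a (141 and 267 reads, 0.96), Hjurp (-0.18) and Spp2 (758 and 1132 reads, 0.62) follow Ugt1a1, and Usp40 (510 and 330 reads, -0.59), Dgkd (-0.33) and Atg16l1 (0.05) precede the locus. Dnajb3, within the locus on the opposite strand, had 1 and 4 reads.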
